A study of Mus musculus with 82 samples.

Results

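The 1074 regions described here are EoGFP peaks that overlapped, by at least 1 bp, a BraGFP peak and an EoVP16 peak but no EoV5 peak. They were chosen by presence and absence in the 4 deposited peak lists, and they make up 1074 of 30129 EoGFP peaks on assembled chromosomes, or 3.56%. Of the 7123 EoGFP peaks that had both a BraGFP and an EoVP16 peak, 15.1% lacked EoV5, and the other 6049 peaks were in all 4 lists. These presences and absences are the rule itself and are given as a description. They are called EoV5-lacking sites below, which means only that no EoV5 peak of the deposited list lay there.

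The series follows differentiating mouse A2lox.Cre embryonic stem cells in 82 samples of RNA-seq, ChIP-seq and ATAC-seq. Every cell population used here had the double knockout (dKO) and carried 1 construct induced with doxycycline from day 2. The cells grew as embryoid bodies with activin A at 30 ng/ml until day 5. The constructs were EoGFP (Eomes with GFP, 2 libraries), BraGFP (Brachyury with GFP, 2 libraries), EoV5 (Eomes with a V5 tag, 1 library) and EoVP16 (Eomes with the VP16 activation domain of herpes simplex virus, 1 library). EoGFP and BraGFP were precipitated with an antibody against GFP, and EoV5 and EoVP16 with one against V5. The proteins therefore came from an inducible construct and not from their own genes, and libraries without doxycycline were not analysed here. Each construct has 1 peak list, so no value has a replicate and no test between samples can be made. In a bulk population, binding in fewer cells and weaker binding per cell cannot be told apart.

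Both Eomes and Brachyury belong to the T-box family and act in the primitive streak, where mesoderm and definitive endoderm form. T-box proteins bind DNA through a conserved domain that recognises the half-site TCACACC. VP16 is a strong activation domain, and a fusion with it is commonly used to turn on the genes that a factor binds. Start regions of broadly expressed genes are typically rich in CpG and often have no TATA box.

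The promoters below show a frequent feature of the EoV5-lacking sites, a place at gene starts, which other EoGFP peaks without EoV5 share in part. They are the 6 RefSeq promoters of GRCm38.p6 under the EoV5-lacking sites with the highest EoVP16 peaks, each with 250 bases before the start and 50 after it, 5′ to 3′ on the strand of the gene. Capitals mark matches, on either strand, to the 9 motifs searched, which were the T-box half-site TCACACC, the CCAAT box CCAAT, the GC box GGGCGG, the TATA box TATAAA, the E-box CACGTG, the CRE TGACGTC, an ETS site CCGGAAG, an NRF1 site GCGCATG and a YY1 site AAGATGG. NRF1 and CRE matches on opposite strands can overlap, because these motifs are partly palindromic. A match describes the letters and is not a bound site.
Psmd4: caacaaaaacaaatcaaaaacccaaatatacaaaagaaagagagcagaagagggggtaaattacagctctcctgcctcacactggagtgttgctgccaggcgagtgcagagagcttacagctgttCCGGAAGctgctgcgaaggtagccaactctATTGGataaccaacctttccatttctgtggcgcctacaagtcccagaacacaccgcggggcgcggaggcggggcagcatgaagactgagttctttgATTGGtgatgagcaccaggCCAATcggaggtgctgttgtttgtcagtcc
Taok2: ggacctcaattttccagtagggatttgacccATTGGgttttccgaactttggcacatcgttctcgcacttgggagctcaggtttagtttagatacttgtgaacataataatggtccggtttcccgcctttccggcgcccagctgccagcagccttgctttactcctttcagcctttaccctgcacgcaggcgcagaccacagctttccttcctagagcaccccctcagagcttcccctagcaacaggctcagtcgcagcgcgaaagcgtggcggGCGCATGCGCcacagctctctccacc
Uchl5: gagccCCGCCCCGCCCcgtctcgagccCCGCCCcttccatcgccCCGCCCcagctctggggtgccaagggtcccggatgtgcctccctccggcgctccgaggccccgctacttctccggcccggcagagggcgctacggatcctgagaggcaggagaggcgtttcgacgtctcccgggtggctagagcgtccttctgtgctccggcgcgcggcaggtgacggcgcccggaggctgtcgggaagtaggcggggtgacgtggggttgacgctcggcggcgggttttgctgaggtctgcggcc
Rnf126: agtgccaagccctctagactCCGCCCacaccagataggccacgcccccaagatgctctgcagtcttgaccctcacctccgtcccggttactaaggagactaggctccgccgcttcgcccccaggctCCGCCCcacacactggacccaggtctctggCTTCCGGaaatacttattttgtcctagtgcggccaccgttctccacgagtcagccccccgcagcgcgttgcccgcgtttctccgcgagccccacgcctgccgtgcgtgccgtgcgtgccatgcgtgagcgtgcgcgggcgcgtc
Mcoln1: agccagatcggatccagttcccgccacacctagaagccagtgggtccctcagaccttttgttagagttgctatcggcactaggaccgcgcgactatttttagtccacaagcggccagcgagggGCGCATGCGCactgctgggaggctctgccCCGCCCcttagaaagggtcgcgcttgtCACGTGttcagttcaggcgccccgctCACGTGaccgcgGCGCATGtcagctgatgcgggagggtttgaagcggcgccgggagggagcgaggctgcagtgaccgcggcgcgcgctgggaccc
Rmdn3: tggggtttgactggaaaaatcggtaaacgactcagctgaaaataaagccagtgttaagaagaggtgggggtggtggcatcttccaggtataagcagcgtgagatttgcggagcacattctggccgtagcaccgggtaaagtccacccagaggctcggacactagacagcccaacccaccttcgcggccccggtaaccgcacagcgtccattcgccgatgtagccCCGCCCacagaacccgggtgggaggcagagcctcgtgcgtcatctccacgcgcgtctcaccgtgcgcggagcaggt

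None of these 6 promoters held the T-box half-site. The promoter of Psmd4, a ubiquitin receptor of the 26S proteasome, lies at chr3:95042565-95042864 on the minus strand. It held an ETS match at -125 from the start and CCAAT boxes at -95, 2 and 21. The promoter of Taok2, a protein kinase (chr7:126884918-126885217, minus), held overlapping NRF1 matches at 25 and 28. The promoter of Uchl5, a deubiquitinase of the proteasome (chr1:143777028-143777327, plus), held 4 GC boxes and had 36 CpG. Rnf126, a ubiquitin ligase (chr10:79766903-79767202, minus), had 2 GC boxes and an ETS match. Mcoln1, a cation channel of lysosomes (chr8:3500269-3500568, plus), had 2 E-boxes and 3 NRF1 matches. Rmdn3, a tether between mitochondria and endoplasmic reticulum (chr2:119156985-119157284, minus), had a single GC box at -26. The EoVP16 summit lay at -47 from the start of Psmd4, 89 from that of Taok2, -57 from Uchl5, -39 from Rnf126, -58 from Mcoln1 and 56 from Rmdn3, so each summit was within 100 bp of the start.

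The next 3 promoters are those under the highest EoVP16 peaks among EoV5-lacking sites whose promoter does hold the half-site, and they were picked after the motif counts were seen. They are shown as the exception and lie at chr11:22512033-22512332 (Tmem17, plus), chr3:62506939-62507238 (Dhx36, minus) and chr1:75317588-75317887 (Dnpep, minus).
Tmem17: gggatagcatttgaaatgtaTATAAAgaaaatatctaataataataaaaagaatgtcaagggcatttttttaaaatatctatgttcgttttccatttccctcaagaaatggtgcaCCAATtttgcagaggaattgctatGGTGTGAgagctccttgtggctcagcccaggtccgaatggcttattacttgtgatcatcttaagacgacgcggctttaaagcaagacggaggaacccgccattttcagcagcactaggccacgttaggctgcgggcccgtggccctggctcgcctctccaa
Dhx36: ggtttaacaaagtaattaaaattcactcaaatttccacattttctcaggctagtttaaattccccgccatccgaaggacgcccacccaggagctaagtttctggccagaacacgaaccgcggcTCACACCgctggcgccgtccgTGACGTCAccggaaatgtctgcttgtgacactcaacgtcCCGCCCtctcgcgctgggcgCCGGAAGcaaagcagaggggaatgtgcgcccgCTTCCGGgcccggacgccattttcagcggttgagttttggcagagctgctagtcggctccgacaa
Dnpep: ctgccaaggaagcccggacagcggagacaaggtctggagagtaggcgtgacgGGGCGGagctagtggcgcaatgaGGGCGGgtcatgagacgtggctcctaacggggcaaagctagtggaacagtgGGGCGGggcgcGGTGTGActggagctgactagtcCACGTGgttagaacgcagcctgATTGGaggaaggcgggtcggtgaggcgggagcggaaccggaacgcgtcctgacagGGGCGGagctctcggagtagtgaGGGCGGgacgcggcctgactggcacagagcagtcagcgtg

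Tmem17, a membrane protein of the primary cilium, held the half-site at -111, and its EoVP16 peak had a pileup of 71 fragments. Dhx36, a helicase that unwinds G-quadruplexes, held it at -127 beside an overlapping pair of CRE matches at -106 and -105, also with 71 fragments. Dnpep, an aspartyl aminopeptidase, held it at -113 with 68 fragments. All 3 promoters also held at least 1 other motif of the set.

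EoV5-lacking sites lay mostly at gene ends. A peak was placed there when its midpoint was no more than 1 kb from the start or finish of a coding gene, and the 2 were not told apart because the gene table gives no strand. This held for 629 of 1074 EoV5-lacking sites, or 58.6% (95% Wilson interval 55.6 to 61.5), against 27.7% of all EoGFP peaks. Sites in all 4 lists lay there in 2774 of 6049 cases, or 45.9% (44.6 to 47.1). The difference was 12.7 percentage points (95% Newcombe interval 9.48 to 15.9). Against the 3301 EoGFP peaks with EoVP16 but neither BraGFP nor EoV5, of which 54.8% (53.1 to 56.5) lay at gene ends, the difference was 3.76 points (0.345 to 7.14). All intervals on shares cover counting error only, and neighbouring sites are not independent.

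The rest of the EoV5-lacking sites divided between gene bodies and intergenic DNA. Elsewhere inside a coding gene lay 259 of them (24.1%, 21.7 to 26.8), against 28.7% (27.6 to 29.8) of sites in all 4 lists. Outside coding genes lay 186 (17.3%, 15.2 to 19.7), against 25.5% (24.4 to 26.6), a difference of -8.14 points (-10.6 to -5.53). Chromosome X held 6 EoV5-lacking sites (0.559%, 0.256 to 1.21) and 54 sites in all 4 lists (0.893%, 0.685 to 1.16), shares whose intervals overlap. Transfer RNA genes lay under 14 EoV5-lacking sites (1.30%, 0.778 to 2.18) and under 47 sites in all 4 lists (0.777%, 0.585 to 1.03), again with overlapping intervals. Over all EoGFP peaks the share was 0.329% (0.270 to 0.400), below both of these intervals. Small nuclear RNA genes lay under 0 of 1074 EoV5-lacking sites, which allows up to 0.356%, and under 38 sites in all 4 lists (0.628%, 0.458 to 0.861). Over all EoGFP peaks it was 0.153% (0.114 to 0.204), within what the 0 of 1074 allows.

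Many EoV5-lacking sites held a start of transcription. A RefSeq start lay inside 565 of the 1034 EoV5-lacking sites off chromosome 18, which the promoter table does not cover, or 54.6% (51.6 to 57.7). The share was 42.5% (41.3 to 43.8) of sites in all 4 lists and 24.0% (23.6 to 24.5) of all EoGFP peaks. The difference from sites in all 4 lists was 12.1 points (8.81 to 15.4). Of EoGFP peaks with EoVP16 but neither BraGFP nor EoV5, 46.6% (44.9 to 48.4) held a start. The difference from those peaks was 8.01 points (4.51 to 11.5). EoVP16 summits lay within 500 bp of a start at 558 EoV5-lacking sites (54.0%, 50.9 to 57.0), against 2445 sites in all 4 lists (41.8%, 40.5 to 43.0). Among these summits the quartiles of the offset were -78.5 and 75.75 bp with a median of 7.5 bp in EoV5-lacking sites, and -128 and 88 bp with a median of 0 bp in sites of all 4 lists. Upstream of the start lay 48.7% of the nearby summits in EoV5-lacking sites and 49.9% in sites of all 4 lists, so neither class had a preferred side.

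**Figure D1:**
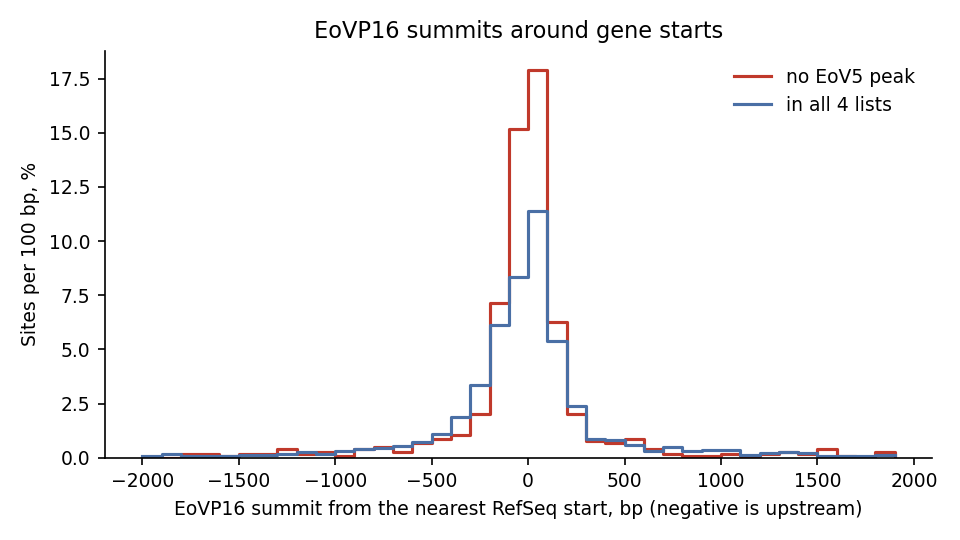
Share of sites (y axis, %) per 100 bp of distance between the EoVP16 summit and the nearest RefSeq start (x axis, bp, negative is upstream), for EoV5-lacking sites (red) and sites in all 4 lists (blue). The 2 bins beside the start hold 15.2% and 17.9% of the EoV5-lacking sites, against 8.34% and 11.4% of sites in all 4 lists.

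The rule asks for overlap with BraGFP and EoVP16, so the distances between the peaks of a site follow in part from it and are given as a description. The EoVP16 summit lay a median of 116 bp from the EoGFP midpoint (quartiles 51 and 232.5 bp), against 132 bp (55 and 274) in sites of all 4 lists. The BraGFP midpoint lay a median of 83 bp from the EoGFP midpoint (quartiles 37.25 and 176 bp), against 94 bp (38 and 211). The 1074 sites corresponded to 1077 BraGFP peaks and 1070 EoVP16 peaks, and 9 sites touched more than 1 BraGFP peak and 4 more than 1 EoVP16 peak.

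The EoVP16 peaks at EoV5-lacking sites were lower than those at sites in all 4 lists. Their pileup, the number of fragments over the summit, had a median of 59 (quartiles 50 and 69, range 36 to 584), against a median of 83 (66 and 109, range 36 to 928) at sites in all 4 lists. Their fold enrichment over the background of the peak caller had a median of 9.86 (8.35 and 11.5), against 13.9 (11.0 and 18.0). Only 24 EoV5-lacking sites reached 100 fragments, against 1941 sites in all 4 lists. EoGFP peaks with EoVP16 alone were lower still, with a median of 53 fragments (45 and 61). All EoGFP peaks with an EoVP16 peak had a median of 65 fragments (51 and 86). Those with EoV5 and EoVP16 but no BraGFP had 63 (49 and 82). The 95% interval of the median, from binomial order statistics over sites, was 58 to 60 fragments for EoV5-lacking sites and 83 to 84 for sites in all 4 lists. EoVP16 and EoV5 were precipitated with the same antibody, but the depth of the libraries is unknown here and heights are compared only within EoVP16.

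The difference in EoVP16 height was present at gene ends and away from them. At gene ends the median was 60 fragments (51 and 69, highest 126) in EoV5-lacking sites and 84 (69 and 102, highest 423) in sites of all 4 lists. Elsewhere it was 57 (47 and 69, highest 584) in EoV5-lacking sites and 83 (62.5 and 118, highest 928) in sites of all 4 lists. The 2 positions thus differed little in their middle values, and the highest EoV5-lacking sites lay away from gene ends. Sites away from gene ends are not all away from starts, since a RefSeq start can lie deeper inside a gene. The sites at Rnf126 (110 fragments) and Gli2 (70) counted as elsewhere, with EoVP16 summits -39 and -38 bp from a start.

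**Figure D2:**
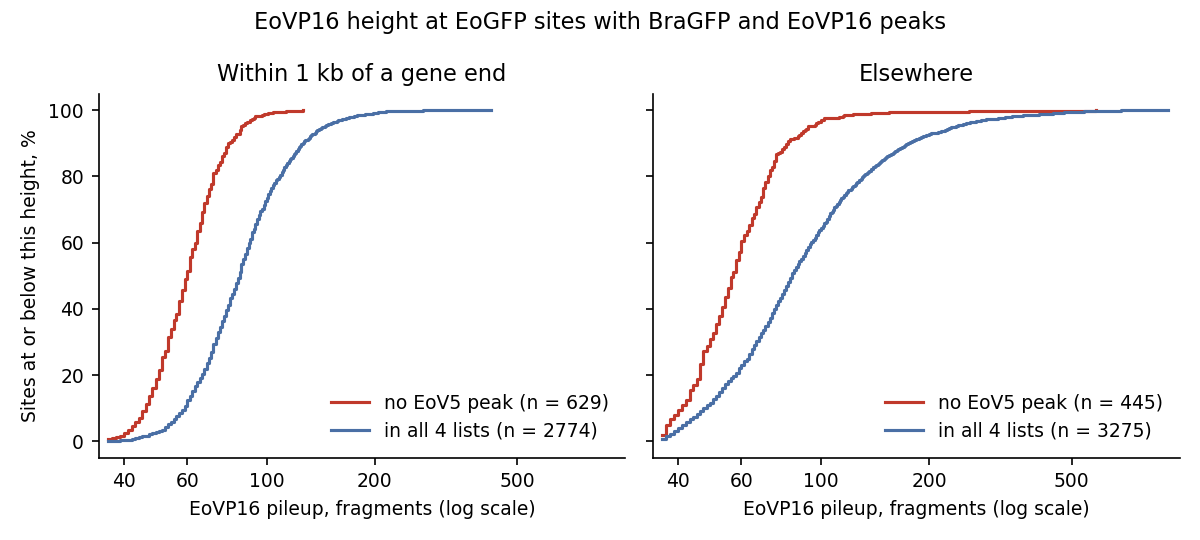
Cumulative share of sites (y axis, %) by EoVP16 pileup in fragments (x axis, log scale), within 1 kb of a gene end (left panel) and elsewhere (right panel), for EoV5-lacking sites (red) and sites in all 4 lists (blue). Red curves lie left of the blue ones, with medians of 60 against 84 fragments at gene ends and 57 against 83 elsewhere, and the longest red tail is in the right panel.

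The share of sites without EoV5 was lower among high EoVP16 peaks, and among low ones it differed between positions. Over both positions it was 30.6% (26.3 to 35.3) at 36 to 44 fragments, 38.4% (35.0 to 42.0) at 45 to 54, 30.2% (27.4 to 33.2) at 55 to 64 and 16.99% (15.2 to 18.9) at 65 to 79. It thus did not fall steadily over the low classes, and elsewhere than at gene ends the lowest 3 classes overlapped in their intervals. At 36 to 44 fragments, 45 of 79 gene-end sites lacked EoV5 (57.0%, 46.0 to 67.3), against 76 of 316 sites elsewhere (24.1%, 19.7 to 29.1). At 45 to 54 fragments the shares were 56.6% (50.9 to 62.1) at gene ends and 26.4% (22.5 to 30.7) elsewhere. At 55 to 64 fragments they were 35.8% (31.8 to 40.0) and 23.7% (20.01 to 27.9), with gene ends again first. From 80 to 99 fragments the intervals of the positions overlapped, at 6.09% (4.69 to 7.88) at gene ends and 5.38% (3.88 to 7.42) elsewhere. At 150 fragments or more, 0 of 116 gene-end sites lacked EoV5, which allows up to 3.21%, and 4 of 494 sites elsewhere did (0.810%, 0.315 to 2.06).

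**Figure D3:**
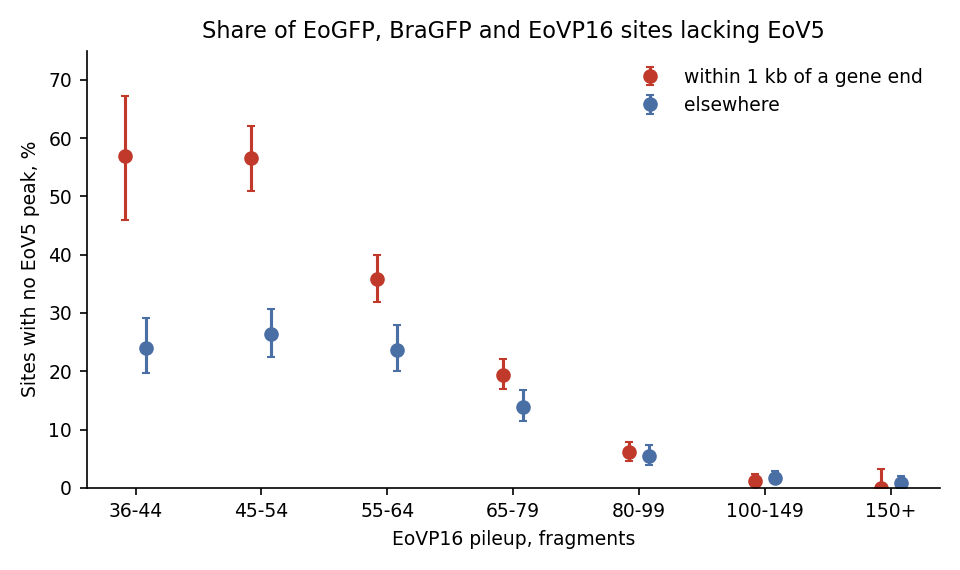
Share of EoGFP sites with BraGFP and EoVP16 peaks that had no EoV5 peak (y axis, %), by EoVP16 pileup in fragments (x axis), at gene ends (red) and elsewhere (blue), with 95% Wilson intervals as bars. The share is 57.0% at gene ends and 24.1% elsewhere in the lowest class and under 7% in every class from 80 fragments upward.

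EoV5 height itself can be read only where EoV5 had a peak. At sites in all 4 lists its median pileup was 92 fragments (75 and 122) at gene ends and 150 (95 and 281.5) elsewhere. Just inside its list, at 61 to 70 fragments, lay 456 of the gene-end sites (16.4%) and 225 of the others (6.87%). Low EoV5 height and the lack of an EoV5 peak thus both occurred more often at gene ends. Whether EoV5-lacking sites carry EoV5 signal below the minimum of the list cannot be told apart from no signal in these files.

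The EoGFP and BraGFP lists give no height, and width was read in its place. EoGFP peaks at EoV5-lacking sites had a median width of 1020 bp (quartiles 718 and 1293), against 1152 bp (830 and 1548) at sites in all 4 lists and 893 bp (648 and 1229) at EoGFP peaks with EoVP16 alone. All EoGFP peaks had a median of 871 bp (644 and 1220). Those with EoV5 and EoVP16 but no BraGFP had 884 bp (660 and 1227). BraGFP peaks had a median width of 850.5 bp (605.5 and 1162.5) at EoV5-lacking sites, against 939 bp (647 and 1324) at sites in all 4 lists. When only the taller 50% of EoV5 peaks counted, the BraGFP difference turned from -88.5 to 89 bp and the EoGFP difference from -132 to -4 bp. With all EoV5 peaks, gene-end BraGFP medians were 929 bp at EoV5-lacking sites and 1123 bp at sites in all 4 lists. Elsewhere they were closer, at 731 and 758 bp. Gene-end EoV5-lacking sites were wider in EoGFP, at a median of 1118 bp, than those elsewhere, at 789 bp. The same held for sites in all 4 lists (1321 and 985 bp) and for all EoGFP peaks (1177 and 786 bp). EoGFP peaks with EoVP16 alone had 1052 and 701 bp. Among all 7123 sites of the 3 lists, EoV5 was missing from 20.1% (18.3 to 22.0) of those below the first quartile of EoGFP width and from 9.42% (8.15 to 10.9) of those from the upper quartile on. For the same classes of BraGFP width at gene ends, the corresponding shares were 33.1% (28.5 to 38.0) and 10.8% (9.13 to 12.7), while elsewhere they were 12.8% (11.1 to 14.6) and 10.4% (8.27 to 13.0).

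The rule removes sites that touch an EoV5 peak, so the distance to the nearest one is a description of the members. Its median was 16396 bp (quartiles 6257.5 and 33931), against 15461 bp (6047 and 33970) for EoGFP peaks with EoVP16 alone, which lack EoV5 by definition too. Of the 1074 sites, 34 lay within 500 bp of an EoV5 peak, 59 within 1 kb and 366 within 10 kb, and 52 were more than 100 kb away. The sites just inside the rule were peaks at Igf2bp1, an RNA-binding protein of fetal tissue, 75 bp from an EoV5 peak, and at Gm35078, 78 bp from one. No site in all 4 lists lay just outside the rule. The smallest stretch such a site shared with EoV5 was 187 bp, the whole width of the narrowest EoGFP peak among them. At 17 EoV5-lacking sites the BraGFP or EoVP16 peak itself reached an EoV5 peak that the EoGFP peak did not touch.

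The other thresholds of the rule were the shared base pair and the minimum height of EoVP16. The smallest stretch shared with BraGFP was 74 bp, at Clcc1, a chloride channel gene of the endoplasmic reticulum. The smallest shared with EoVP16 was 253 bp, inside Lsamp, a neural cell adhesion gene. That is the whole width of the EoVP16 peak there, so this site was not close to the overlap threshold. The lowest EoVP16 pileup, 36 fragments, was shared by 13 sites, 4 at gene ends and 9 elsewhere. The first 3 of them by position lay near Tmem131, at Gtf3c3, a subunit of the RNA polymerase III factor TFIIIC, and inside Tnnt2, cardiac troponin T. In all, 58 EoV5-lacking sites had 36 to 40 fragments.

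The EoV5 peak names carry numbers that rose along the chromosome for 100% of neighbouring peaks, and the list holds 38193 peaks with numbers up to 181083. At all 1069 EoV5-lacking sites flanked by EoV5 peaks on both sides, at least 1 number was skipped between the flanks. Most of these gaps were long, with a median of 81777 bp, so short gaps were read separately. Of the EoV5 gaps of 2 to 5 kb, 8 held an EoV5-lacking site and all 8 skipped a number (100%, 67.6 to 100), against 506 of 1242 gaps with no peak of the other 3 lists (40.7%, 38.0 to 43.5). For gaps of 5 to 10 kb it was 16 of 16 (100%, 80.6 to 100) against 58.0% (55.3 to 60.6), and for 10 to 20 kb 61 of 61 (100%, 94.1 to 100) against 69.8% (67.5 to 72.0). What a skipped number stands for is not given in the sources used here. Gaps holding other EoGFP peaks without EoV5 were not counted separately. The contrast therefore does not show whether skipped numbers are particular to these sites.

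The highest EoVP16 peaks among EoV5-lacking sites lay mostly away from gene ends, with 2 of the highest 10 at a gene end. The highest, at chr16:3542680-3544882, had 584 fragments (95% Poisson interval 538 to 633), an EoGFP width of 2203 bp and a BraGFP width of 1367 bp. Its nearest coding gene was the olfactory receptor Olfr161, 48.6 kb away, and the nearest EoV5 peak was 40.4 kb away. The next had 259 fragments (228 to 293) and lay about 10.1 kb, from its midpoint, beyond Spry4, a feedback inhibitor of receptor tyrosine kinase signalling. A peak inside Pknox2, a TALE homeobox gene, had 220 fragments (192 to 251), and one 38.0 kb from Serbp1, an mRNA-binding protein, had 155 (132 to 181). The peak near Serbp1 was 1.43 kb from an EoV5 peak.

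Closer to the factors themselves, a peak inside T2 at chr17:8396146-8397023 had 138 fragments (116 to 163) and lay 37.4 kb from T, the gene of Brachyury. The nearest EoV5 peak was 11.5 kb away from it. Of the 10 highest, the 2 at gene ends were Psmd4, with 126 fragments (105 to 150), and Abcd4, a lysosomal cobalamin transporter, with 119 (98.6 to 142). The Abcd4 peak was 291 bp from an EoV5 peak and that of Psmd4 25.2 kb. The others lay 55.1 kb from Hsd17b3, a testosterone-forming enzyme, with 123 fragments, inside Crim1, a membrane protein that binds BMPs, with 122, and 21.9 kb from Susd4, a complement regulator, with 116. Their Poisson intervals, 102 to 147, 101 to 146 and 95.9 to 139 fragments, overlap, so the order among them is within counting error.

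Width picked out other genes than EoVP16 height did. The widest EoGFP peak, 5315 bp, covered one end of Ptprg, a receptor tyrosine phosphatase, with a BraGFP width of 2903 bp and 70 EoVP16 fragments. Peaks at Bmp7, a BMP ligand, and Etv1, an ETS factor, were 3976 and 3877 bp wide with 63 and 61 fragments. Those at Trp53, the p53 gene, and Sphk1, a sphingosine kinase, were 3482 and 3455 bp wide with 57 and 43 fragments. All 5 widths exceeded 3 times the class median of 1020 bp, while these EoVP16 heights were between 43 and 70 fragments. Farthest from any EoV5 peak were sites at Glra3, a glycine receptor subunit (396 kb), Fastkd3, a mitochondrial RNA-binding protein (387 kb), Gm5784 (355 kb), Aldh1a1, a retinaldehyde dehydrogenase (336 kb), and Dlg2, a synaptic scaffold (334 kb). Their EoVP16 pileups were between 46 and 80 fragments, inside the range of most EoV5-lacking sites.

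Promoters inside EoV5-lacking sites were rich in CpG, as were promoters under EoGFP peaks in general. The sites held 726 promoters of 647 genes, with a median of 21.5 CpG in 300 bases (quartiles 15 and 28) and a median G+C share of 61%. The 3449 promoters in sites of all 4 lists had 23 CpG (16 and 30) and 62%. Promoters under EoGFP and EoVP16 alone had 21 CpG (15 and 27) and 61%. Those under any EoGFP peak had 21 CpG (14 and 28) and 61.3%. Over all 32851 promoters of the table the medians were 7 CpG (3 and 20) and 52.7%.

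The T-box half-site was sparse in these promoters. It was present in 17 of 726 (2.34%, 1.47 to 3.72), against 154 of 3449 in sites of all 4 lists (4.47%, 3.82 to 5.21) and 3.98% (3.77 to 4.20) of all promoters. The difference from sites in all 4 lists was -2.12 points (95% Newcombe interval -3.27 to -0.606). Promoters under EoGFP and EoVP16 alone had it in 2.74% (2.10 to 3.56), a difference of -0.395 points (-1.60 to 1.12). Only the 300 bases at the start were searched, and the rest of each peak was not. Promoters of 1 gene or 1 site can share bases, so the 726 are not independent. The motif intervals here and below may therefore be too narrow.

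Of the other 8 motifs, 2 had a difference from sites in all 4 lists whose interval did not reach 0. The ETS site was in 191 of 726 promoters (26.3%, 23.2 to 29.6), against 20.03% (18.7 to 21.4) in sites of all 4 lists and 8.86% of all promoters, a difference of 6.27 points (2.91 to 9.84). Against promoters under EoGFP and EoVP16 alone, 23.5% (21.7 to 25.4) of which held it, the difference was 2.82 points (-0.814 to 6.61), an interval that reaches 0. The GC box was in 61.8% (58.3 to 65.3), against 68.0% (66.4 to 69.6) and 35.7%, a difference of -6.17 points (-10.1 to -2.37). Against EoGFP and EoVP16 alone (66.9%) it was -5.01 points (-9.15 to -0.946). Intervals reached 0 for the CCAAT box (39.7% against 38.6%), the TATA box (5.79% against 5.33%), the E-box (12.9% against 11.0%), the CRE (6.89% against 7.77%), NRF1 (8.95% against 8.79%) and YY1 (8.82% against 7.10%). For these 6 the widest interval, that of the CCAAT box, ran from -2.84 to 4.97 points. Such motif shares follow base composition, whose part in these differences was not tested.

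**Figure D4:**
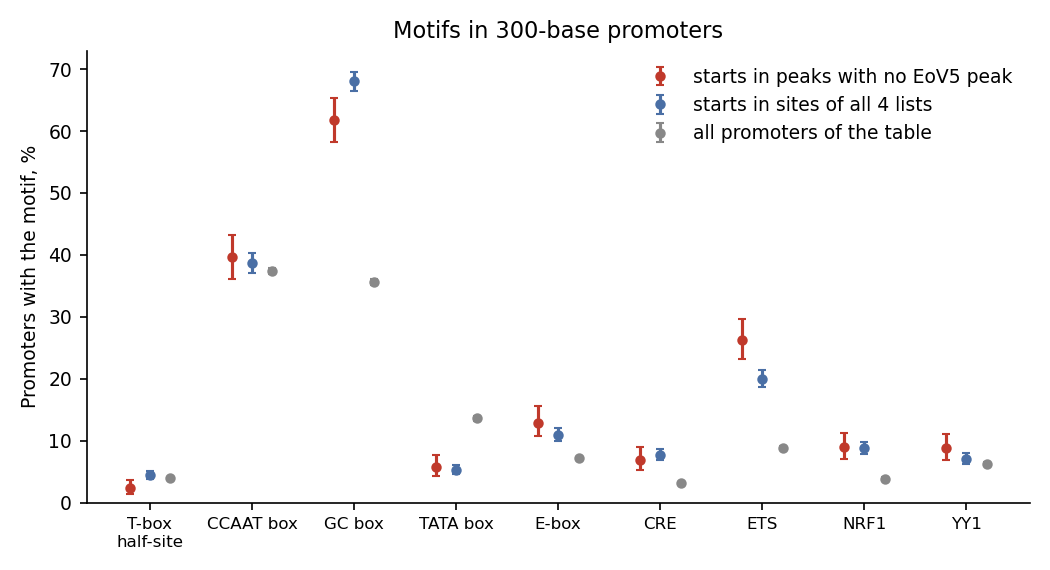
Share of promoters holding each of 9 motifs on either strand (y axis, %), for starts inside EoV5-lacking sites (red, 726), inside sites of all 4 lists (blue, 3449) and all promoters (grey, 32851), with 95% Wilson intervals as bars. The T-box half-site is at 2.34% in red and 4.47% in blue, and the ETS site at 26.3% and 20.03%.

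Some gene families of basic cell functions had larger shares of genes beside EoV5-lacking sites than all coding genes had, and others did not. An EoV5-lacking site covered or lay within 1 kb of 1009 of 21900 coding genes (4.61%), and a site in all 4 lists did so for 4618 (21.1%). These shares are the background for the gene lists, and 150 of the 1009 genes (14.9%) also had a site in all 4 lists. Mitochondrial ribosomal proteins had 15 of 78 genes beside EoV5-lacking sites (19.2%, 12.0 to 29.3), against 24 beside sites in all 4 lists (30.8%). Proteasome subunits and assembly factors had 9 of 48 (18.8%, 10.2 to 31.9), against 8 (16.7%). Zinc finger genes named Zfp had 39 of 397 (9.82%, 7.27 to 13.1), against 120 (30.2%). The lists are described by counts, and no test of them was made.

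Over these 3 families the EoVP16 pileup of the sites ran from 36 to 126 fragments. Mrpl54, Mrps33 and Mrpl23, proteins of the mitochondrial ribosome, had EoVP16 pileups of 82, 76 and 70 fragments. Psmd1, a base subunit of the proteasome, had 87 and Psmb3, a core subunit, 82, after Psmd4 with 126. Zfp712, Zfp13 and Zfp59 had 87, 86 and 81 fragments. Some genes share 1 peak, as Psmc2 and Dnajc2 did at chr5:21784465-21785450 with 71 fragments, and Zfp398 and Zfp786 did with 63.

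Energy and translation genes mostly had shares whose intervals held the background of 4.61%. The EoVP16 pileup in fragments follows each gene in brackets. ATP synthase subunits had 3 of 17 beside EoV5-lacking sites (17.6%, 6.19 to 41.0), above it, namely Atp5h (65 fragments), Atp5c1 (57) and Atp5j2 (51), against 4 beside sites in all 4 lists. Complex I of the respiratory chain had 5 of 49 (10.2%, 4.44 to 21.8), led by Ndufs5 (85), Ndufb7 (75) and Ndufs4 (66), against 14. Cytochrome c oxidase had Cox18 (77) and Cox6a1 (63) of 27 (7.41%, 2.06 to 23.4), against 10. RNA polymerase subunits had 3 of 28 (10.7%, 3.71 to 27.2), among them Polr3b (96) and Polr1b (68), against 9. Cytosolic ribosomal proteins had 4 of 84 (4.76%, 1.87 to 11.6), led by Rpl27 (84), Rps12 (77) and Rps20 (65), against 20 (23.8%), which is near the background in both. Translation initiation factors had Eif3e (58) and Eif4a1 (51) of 56 (3.57%, 0.985 to 12.1), against 18, and aminoacyl-tRNA synthetases had Aars2 (78) and Wars (53) of 33 (6.06%, 1.68 to 19.6), against 13.

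Chromatin, splicing and folding genes varied from list to list, again with EoVP16 fragments in brackets. Heat shock and DnaJ chaperones had 9 of 75 (12%, 6.44 to 21.3), led by Dnajc7 (87), Dnajc13 (78) and Dnajc2 (71), against 27 (36%). Histones had 6 of 93 (6.45%, 2.99 to 13.4), against 29 (31.2%), and of these H2ac18 and H3c14 shared 1 peak of 85 fragments, as did H2ac6 and H2bc4 with 61. SR splicing factors had Srsf7 (71) and Srsf11 (66) of 11 (18.2%, 5.14 to 47.7), against 2. Histone lysine demethylases had Kdm3b (41) of 18 (5.56%, 0.988 to 25.8), against 9. The hnRNP proteins had 0 of 21 (up to 15.5%), against 8, and the chaperonin CCT had 0 of 9 (up to 29.9%), against 5.

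Developmental and signalling genes lay beside EoV5-lacking sites at a share not distinguishable from that of all coding genes at these counts. The lists for primitive streak, mesoderm, definitive endoderm, pluripotency, neural tissue, Nodal, Wnt, FGF and ERK, and epithelial-mesenchymal transition together hold 136 genes. Of these, 3 had an EoV5-lacking site within 1 kb (2.21%, 0.753 to 6.28), and 53 had a site in all 4 lists (39.0%, 31.2 to 47.4). Against the backgrounds of 4.61% and 21.1%, the interval of the first share holds its background and that of the second lies above its own. The 3 genes were Tbx6, a T-box factor of presomitic mesoderm, Ski, a corepressor that restrains Smad signalling, and Zeb2, a repressor of epithelial genes.

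These 3 sites differed in height. The Tbx6 site at chr7:126784989-126785701 had 37 EoVP16 fragments (26.1 to 51.0), close to the minimum of the list, and a BraGFP width of 927 bp. The Ski site at chr4:155173410-155174387 had 73 (57.2 to 91.8) and a BraGFP width of 1297 bp. The Zeb2 site at chr2:44999761-45000376 had 112 (92.2 to 135) and a BraGFP width of 442 bp. EoV5 peaks were 4.40, 11.4 and 16.8 kb away at Tbx6, Ski and Zeb2. Among lists of other tissues, EoV5-lacking sites lay beside Epor of 12 blood genes (8.33%, 1.49 to 35.4), Krt8 of 49 keratins (2.04%, 0.361 to 10.7) and 0 of 12 germ cell genes (up to 24.2%), all with intervals that hold the background. For olfactory receptors it was 0 of 1110 (up to 0.345%).

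At a larger distance the share was again near that of all coding genes. Within 50 kb, a distance chosen after the nearer counts were seen, 19 of the 136 genes had an EoV5-lacking site (13.97%, 9.13 to 20.8), against 13.5% of all coding genes. A site in all 4 lists lay within 50 kb of 79 of them (58.1%, 49.7 to 66.0), against 45.4% of all coding genes. The EoV5-lacking sites in this range included those near Lefty2, a Nodal antagonist (87 fragments, 41.5 kb), Foxh1, a Nodal effector (73, 41.3 kb), Wnt3, a streak ligand (66, 22.6 kb), and Etv4, an ETS factor downstream of FGF (97, 36.3 kb). Other genes were nearer to each of these sites. They lay at an end of Sde2, at an end of Vps28, inside Nsf and at an end of Dhx8, in the same order. Near Nanog and Dppa3, pluripotency genes, 1 site with 55 fragments lay 37.7 and 38.8 kb away.

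**Figure D5:**
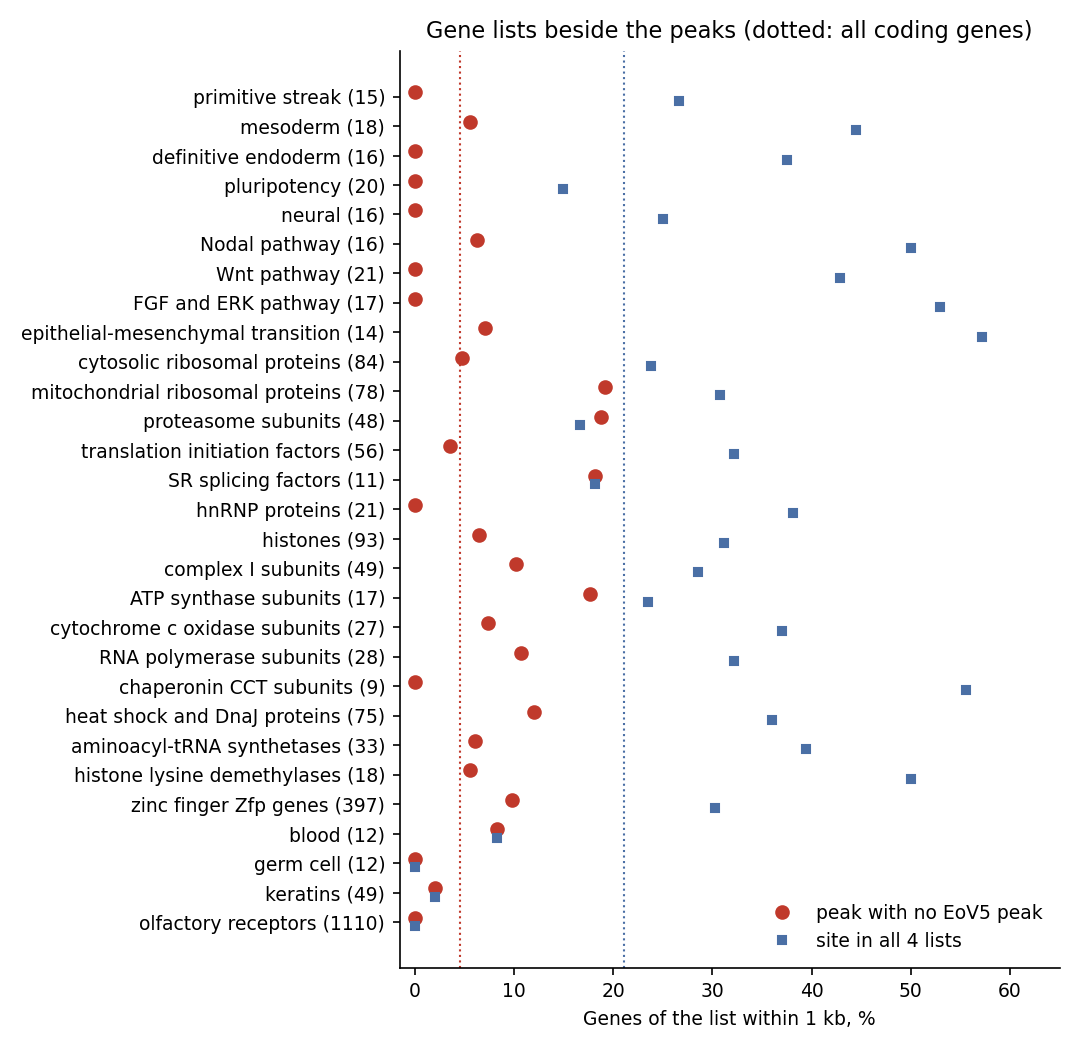
Share of genes of each list (y axis, number of genes in brackets) within 1 kb of an EoV5-lacking site (red circles) or a site in all 4 lists (blue squares), in % (x axis). Dotted lines mark all coding genes, 4.61% in red and 21.1% in blue; 6 of the 9 developmental and signalling lists are at 0 in red, and mitochondrial ribosomal proteins (19.2%) and proteasome subunits (18.8%) are the highest red points.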

How the data were processed

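Peak lists of 4 ChIP-seq constructs were used, grouped by the sample titles, and RNA-seq, ATAC-seq and H3K27ac were not used here. Per the submitters' processing notes, the tools were MACS2 2.1.1.20160309.4, deepTools 3.0.2, bedtools 2.27.0, SAMtools 1.3.1, Picard 1.56.0 and Bowtie2 2.3.4 with mm10/GRCm38, and their settings and order are not given in the sources used here. The deposited EoV5 and EoVP16 tables give the signal as pileup at the summit in fragments, the ratio as fold enrichment over the caller's background, and −log10 p and q, which were not used. The deposited EoGFP and BraGFP lists give positions only. Minimum pileups of 120 (EoGFP), 40 (BraGFP), 60 (EoV5) and 36 (EoVP16) stand in the deposited file names. No source used here says how replicate libraries of EoGFP or BraGFP became 1 list, and library depth is unknown, so heights were not scaled.

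Unplaced and repeated peaks were dropped, leaving 30129 EoGFP, 27588 BraGFP, 38193 EoV5 and 36203 EoVP16 peaks, all taken as 1-based. Peaks sharing at least 1 bp overlap, and the tallest (EoVP16) or widest (BraGFP) partner was kept. Genes (21900 coding) and promoters (32851) came from RefSeq GRCm38.p6 tables; matches were by symbol. Shares carry 95% Wilson intervals, differences of shares Newcombe intervals and pileups exact Poisson intervals, all for counting error only. Medians carry binomial order-statistic intervals over sites, which treat sites as independent and cover no variation between libraries. Python 3.11.15 with pandas 2.3.3, numpy 2.4.6 and scipy 1.17.1 was used, and the functions were tested on simulated data. Sites, gene lists and motifs were chosen with earlier results of these data known. Named genes are those nearest the 10 highest EoVP16, 5 widest EoGFP and 5 farthest-from-EoV5 sites, up to 3 per gene list by EoVP16 pileup, those of the first 6 printed promoters, and sites nearest each threshold, except 2 genes that are not reported here. Genes outside this rule (the 3 half-site promoters, genes sharing a peak, and genes within 50 kb) were named after their values were seen. The alternatives covered the overlap rule, the taller or wider 50% of each list, autosomes and a gene-end distance of 5 kb.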

Additional observations from a re-analysis of the deposited data

How the results depend on the processing

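The number of EoV5-lacking sites was 1074, and became 695 with the taller 50% of EoVP16 peaks, 661 with the wider 50% of EoGFP peaks and 3551 with the taller 50% of EoV5 peaks, where dropping EoV5 peaks adds sites by construction. The gene-end difference from sites in all 4 lists (12.7 points) became 16.8 with the wider EoGFP peaks and 29.1 with the taller EoV5 peaks. The difference in median EoVP16 pileup (-24 fragments) became -22 with the taller EoVP16 peaks, -26 with the wider EoGFP or the wider BraGFP peaks and -28 with the taller EoV5 peaks. With the taller EoV5 peaks, the EoGFP width difference (-132 bp) became -4 bp and the BraGFP width difference (-88.5 bp) turned to 89 bp, and the cause was not tested. The share of developmental and signalling genes, relative to all coding genes, was -2.40 points at 1 kb and 0.423 points at 50 kb, a distance added after seeing the data. Overlap of at least 100 bp, peaks within 500 bp counted as shared, autosomes alone and a gene-end distance of 5 kb kept the direction of every difference they were run on, and the half-site difference stayed negative under all alternatives run on it. No paired analysis was possible because each construct has 1 peak list without replicate columns. Limits: no replicate, no depth and no height for EoGFP and BraGFP, so heights could not be compared between constructs.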
